A study of Mus musculus with 6 samples.

Results

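Nr4a1, Nr4a2 and Nr4a3 are the 3 genes of the Nr4a family of orphan nuclear receptors, and they were taken by symbol from a table of 23420 genes in embryonic mouse neocortex. All 3 were in the table and all 3 passed the filter on low counts, as did 14618 genes in all. The family was selected on its read counts in the mutant against wild-type comparison, with the results known, so their differences between genotypes are given here as a description and support nothing further.

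Nr4a receptors are transcription factors with a zinc finger DNA-binding domain and a ligand-binding domain whose pocket is filled by side chains, so their activity follows mainly from how much protein is made. They bind DNA alone at the NBRE sequence, as pairs, or, for Nr4a1 and Nr4a2, as partners of the retinoid X receptors. Nr4a1 (Nur77) and Nr4a3 (Nor1) are known as immediate-early genes that calcium, cAMP and growth factor signals switch on within minutes in neurons. Nr4a2 (Nurr1) can be induced in the same way, but it is also expressed steadily by particular neurons: in the developing cortex it marks the subplate, the deepest and earliest-born neuron layer, and in the midbrain it specifies dopamine neurons.

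The libraries were RNA sequencing of total RNA from neocortex at embryonic day 18.5, with 3 libraries from embryos labelled as Tshz3 mutant and 3 from wild-type embryos. Tshz3 encodes a zinc finger transcription factor. Each library pooled the cortices of 3 to 4 embryos drawn from several litters, so a value is a mean over animals and over all cell types of the tissue. The sources used here do not name the allele, zygosity or strain. Tshz3 itself ran from 89.8 to 99.2 CPM (reads of the gene per 1000000 reads of the library, after scaling) in the mutant-labelled libraries and from 78.7 to 89.3 CPM in wild type, so its gene-level count did not check the genotype labels. Total counts ran from 18569383 to 24147810 per library. As a check of the tissue, Neurod6, a transcription factor gene of cortical projection neurons, was at 569.0 to 644.7 CPM over all 6 libraries. Fold changes are mutant-labelled over wild type.

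The family's promoters share a feature that the choice of genes did not use. The RefSeq table for build GRCm38.p6 matched all 3 genes with 1 start site each, and the 250 bases before each start were searched for the CRE core TGACG, the core of the element bound by the cAMP-responsive factor CREB, on both strands. Each of the 3 windows held 4 CRE cores, which lay 36 to 233 bases before the start in Nr4a1, 107 to 200 in Nr4a2 and 143 to 231 in Nr4a3. Of 32851 promoter windows in the table, 17.8% held at least 1 core and 45 windows, or 0.137%, held at least 4. These windows are rich in G and C, at 74.4% for Nr4a1, 80.0% for Nr4a2 and 63.6% for Nr4a3 against a median of 52.4%, and among the 9178 windows with at least 60% the share with 4 cores was 0.37%. The sequences are shown because these repeated cores are common to all 3 genes; capitals mark the core as TGACG or, on the opposite strand, CGTCA.
Nr4a1, plus strand, chr15:101266596-101266845: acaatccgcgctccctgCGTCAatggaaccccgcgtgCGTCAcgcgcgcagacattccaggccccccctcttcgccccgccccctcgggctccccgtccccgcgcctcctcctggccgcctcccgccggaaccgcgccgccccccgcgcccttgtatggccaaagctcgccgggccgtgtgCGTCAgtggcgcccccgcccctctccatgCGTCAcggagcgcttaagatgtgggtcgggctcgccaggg
Nr4a2, minus strand, chr2:57124004-57124253: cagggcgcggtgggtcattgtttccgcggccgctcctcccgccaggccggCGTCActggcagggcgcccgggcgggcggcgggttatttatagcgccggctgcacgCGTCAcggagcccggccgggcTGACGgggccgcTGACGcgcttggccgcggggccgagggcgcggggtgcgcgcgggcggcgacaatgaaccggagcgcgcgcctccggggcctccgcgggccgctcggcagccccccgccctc
Nr4a3, plus strand, chr4:48045055-48045152: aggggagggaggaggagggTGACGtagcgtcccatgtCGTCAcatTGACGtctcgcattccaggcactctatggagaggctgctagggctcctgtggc

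For Nr4a3 only the first 98 bases are printed, with 3 of its 4 cores, because the rest of the window lies in an exon of the GENCODE M21 annotation. The complete palindrome TGACGTCA, which contains the core on both strands, was in none of the 3 windows and in 1.55% of all windows. The NBRE to which Nr4a proteins bind, AAAGGTCA, was also in none of them, with 1.34% of all windows holding it, and so was the CArG box of the serum response factor, with 1.47%. The site of the Egr factors, GCGNGGGCG, occurred once each in Nr4a1 and Nr4a2, as in 4.7% of all windows and 14.5% of the G- and C-rich ones, and not in Nr4a3. These are matches of letters in short windows, with near matches not counted, and not measured binding. GENCODE lists further transcript starts for all 3 genes, upstream of the window in Nr4a1 (at 101254269) and downstream of it in Nr4a2, and the counts do not tell start sites apart.

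Nr4a1 was lower in the mutant-labelled libraries. Its gene lies on the plus strand of chromosome 15 from 101254269 to 101274795 (GRCm38). It was counted 283, 273 and 291 times in mutant-labelled libraries 1 to 3 and 503, 483 and 533 times in wild-type libraries 1 to 3. Scaled to library size these were 13.3, 11.4 and 14.7 CPM against 23.8, 23.3 and 29.0 CPM. The groups did not overlap: the highest mutant-labelled library was 14.7 CPM and the lowest wild-type library 23.3 CPM, and 6.09% of the genes tested were likewise lower without overlap.

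The means were 13.1 ± 1.65 CPM and 25.4 ± 3.14 CPM (SD, n = 3 libraries per genotype). On the log2 scale the difference was −0.95 (SE 0.13), with a level 1.94-fold higher in wild type. Ordered by log2 fold change, Nr4a1 was number 49 from the bottom of all genes tested. In edgeR's quasi-likelihood test across all genes the adjusted p was 0.0773, so Nr4a1 was not among the 11 genes called, which were 0.0752% of those tested. With the library number as a block the adjusted p was 2e-05 with the same fold change, and that fit called 506 genes or 3.46%. DESeq2, without the block, also called it (adjusted p = 8.41e-07) among 106 genes or 0.725%. Within the same-numbered pairs the log2 ratios were −0.84, −1.04 and −0.99, so each pair showed a difference of nearly the same size. The direction was negative in all 16 fits run, from −1.03 to −0.85. Without wild type 2 the edgeR adjusted p was 0.0493 and without wild type 3 it was 0.373.

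Nr4a2 was the most abundant member and was slightly higher in the mutant-labelled libraries. It lies on the minus strand of chromosome 2 from 57106830 to 57124003. Its level was 100.3, 100.9 and 101.7 CPM in mutant-labelled libraries 1 to 3 and 86.1, 91.5 and 96.8 CPM in wild-type libraries 1 to 3. The mutant-labelled libraries were thus almost identical to each other and all above wild type, by as little as 100.3 against 96.8 CPM. Of all genes tested, 7.42% were higher without overlap. The log2 fold change was 0.14 (SE 0.06), and neither edgeR without the block (adjusted p = 0.678) nor with it (0.111) called the gene. The ratio was positive in each pair, at 0.22, 0.14 and 0.07 on the log2 scale, and in all 16 fits, from 0.10 to 0.18.

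Nr4a3 varied most among the wild-type libraries, whose SD of 8.31 CPM was larger than the difference between the group means of 21.1 and 16.7 CPM. It lies on the plus strand of chromosome 4 from 48045153 to 48086447. Its level was 17.8, 25.8 and 19.9 CPM in mutant-labelled libraries 1 to 3 and 10.5, 26.2 and 13.5 CPM in wild-type libraries 1 to 3. The groups overlapped, because wild type 2 was the highest library of all, while the other wild-type libraries lay below every mutant-labelled one. Its spread among wild-type libraries, an SD of 0.68 on the log2 scale, was exceeded by 3.75% of the genes tested. The spread for Nr4a1 was 0.17 and for Nr4a2 0.08.

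Library 2 was the highest of its genotype for Nr4a3 in both groups, which was also the case for 20.1% of all genes tested. For Nr4a3 the fold change on the log2 scale was 0.34 (SE 0.34), with an edgeR adjusted p of 0.921, and the pairs gave 0.76, −0.02 and 0.56. Its size rested on single libraries: it was 0.09 without wild type 1, 0.20 without wild type 3, 0.17 without mutant 2 and 0.82 without wild type 2 (adjusted p = 0.147). With the block the gene was not called (log2 fold change 0.40, adjusted p = 0.182), and with the block and without pair 2 it was called higher (0.66, adjusted p = 1.81e-07). That last fit called 1119 genes higher and 755 lower on 1 residual degree of freedom.

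**Figure D1:**
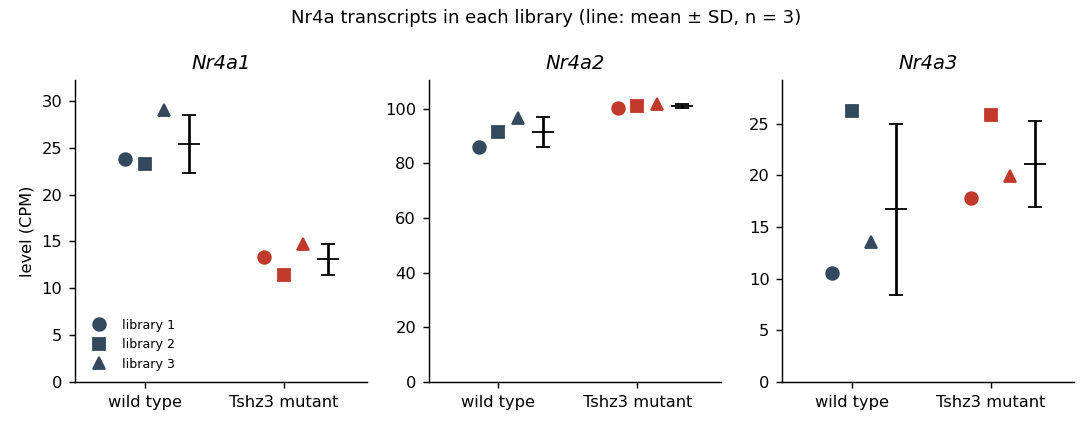
Level in CPM (vertical axis from 0) of each Nr4a gene in wild-type (dark) and Tshz3 mutant-labelled (red) libraries; marker shapes give the library number and the black bar the mean ± SD of 3 libraries. The Nr4a1 groups are apart (11.4 to 14.7 against 23.3 to 29.0) and the Nr4a2 groups are apart by a small gap. The Nr4a3 groups overlap because wild type 2, near 26 CPM, lies above every mutant-labelled library.

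Per length of transcript, Nr4a2 was the highest member in both genotypes. In GENCODE M21 the exons span 3509 bases in Nr4a1, 4059 in Nr4a2 and 5987 in Nr4a3 when all annotated transcripts are merged. The annotation used for counting is not given, so the exons in which reads were counted may differ. In wild type the levels were 22.5 ± 1.32 RPKM (CPM per kilobase of exon) for Nr4a2, 7.24 ± 0.896 for Nr4a1 and 2.8 ± 1.39 for Nr4a3 (SD, n = 3). No wild-type library of a lower-ranked gene reached the range of the gene above it: Nr4a1 ran from 6.65 to 8.27 and Nr4a3 from 1.76 to 4.37 RPKM. In mutant-labelled libraries Nr4a2 was at 24.9 ± 0.171 RPKM. There Nr4a1 at 3.74 ± 0.469 and Nr4a3 at 3.53 ± 0.692 did not differ beyond their spread with these merged lengths. Their ranges were 3.24 to 4.18 and 2.97 to 4.3 RPKM. With the longest transcript as length the mutant-labelled means were 5.14 for Nr4a1 and 3.7 for Nr4a3, so their near equality depends on the length used.

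The ratio of Nr4a1 to Nr4a2 reads within a library does not depend on scaling. Its log2 value was −2.91, −3.15 and −2.79 in mutant-labelled libraries 1 to 3 and −1.85, −1.97 and −1.74 in wild-type libraries 1 to 3. Each wild-type library held 3.34 to 3.92 Nr4a2 reads per Nr4a1 read, and each mutant-labelled library 6.94 to 8.87. The mean difference in the log2 ratio was −1.10, and it stayed between −1.18 and −1.0 with any 1 library left out. Nr4a1 made up 22.2 ± 2.18% of the summed family RPKM in wild type and 11.6 ± 1.46% in mutant-labelled libraries. The sum itself was 29.8, 33.6 and 34.4 RPKM in wild type and 31.5, 32.4 and 32.6 RPKM in mutant-labelled libraries, which overlap. The log2 ratio of Nr4a3 to Nr4a2 reads overlapped as well, at −3.03 to −1.81 in wild type and −2.50 to −1.97 in mutant-labelled libraries.

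**Figure D2:**
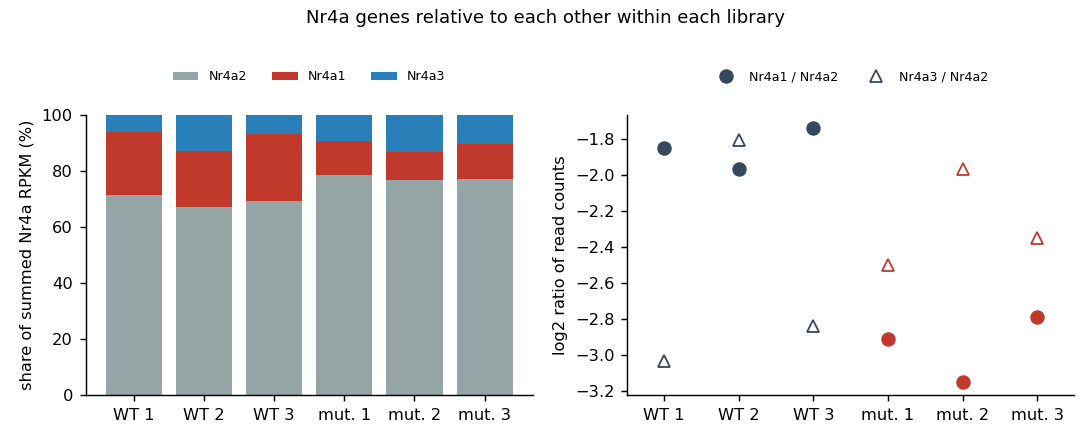
Left, share in percent of the summed family RPKM held by each Nr4a gene in each library, stacked to 100%; right, log2 ratio of read counts within each library (axis does not start at 0), for Nr4a1 over Nr4a2 (filled circles) and Nr4a3 over Nr4a2 (open triangles), wild type dark and mutant-labelled red. Nr4a1 holds at least 19.8% in each wild-type library and at most 12.8% in each mutant-labelled one, and the filled circles separate by genotype while the triangles do not.

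Across the 6 libraries, the log2 levels of Nr4a1 and Nr4a2 had a Pearson r of −0.69, Nr4a1 and Nr4a3 one of −0.55, and Nr4a2 and Nr4a3 one of 0.51. With each group's mean removed, so that only differences among libraries of a genotype remain, the values were 0.58, −0.43 and 0.27. All 3 genes share the same libraries and scaling, and 6 points carry little information, so these values are descriptions.

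Nr4a1 was lower alongside many genes that neuronal activity and other stimuli induce. Of 34 such genes listed besides the Nr4a family, 33 were tested, and their median log2 fold change was −0.31 against −0.01 over all genes tested. Among cell-type marker lists the median was −0.33 (meningeal and mural), −0.24 (microglia and macrophage), −0.13 (striatal) and 0.03 (neocortex projection neuron). A median below 0 was thus not particular to activity-induced genes. With the block 10 of the 33 were called lower, 1 higher and 22 were not called, while over all genes tested that fit called 1.49% lower and 1.97% higher. The 10 became 14 without pair 1, 12 without pair 2 and 3 without pair 3. Within same-numbered pairs 1 to 3 the median log2 ratio of the 33 genes was −0.11, −0.30 and −0.53, so it was uneven between pairs. In the edgeR fit without the block only Egr1 was called lower and none higher, and DESeq2 called 5 lower and 1 higher. Nr4a1 sat close to the lower end, with 5 of the 33 at a lower fold change: Atf3, Egr1, Egr2, Fos and Fosb. Nr4a2 and Nr4a3 sat at the other end, above 30 and 31 of the 33. The lower levels of activity-induced genes were among the results known when the family was picked, so this is no independent support.

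Egr1, a zinc finger transcription factor gene of the immediate-early class, was called in both edgeR fits. It was at 15.6, 13.8 and 13.1 CPM in mutant-labelled libraries 1 to 3 and at 48.0, 51.1 and 53.3 CPM in wild-type libraries 1 to 3, so the groups were far apart. It fell by 1.84 on the log2 scale (SE 0.09, edgeR adjusted p = 0.000586). Atf3, a stress-induced bZIP factor gene, was at 0.604 to 0.754 CPM against 1.14 to 4.08 CPM and fell by 1.78 on the log2 scale with the block (edgeR adjusted p = 0.0151). Egr2 and Fosb fell by 1.78 and 1.51 in that fit. Both were rare: Egr2 was at 0.417 to 0.655 CPM in mutant-labelled and 1.23 to 2.12 CPM in wild-type libraries. Fosb was at 0.453 to 0.66 CPM against 1.3 to 1.91 CPM. Klf4, Maff, Ier2, Ppp1r15a, Per1 and Jund, the others called lower with the block, fell by 0.25 to 0.85. Jun, part of the AP-1 dimer, was at 45.7 to 50.5 CPM against 53.5 to 109.1 CPM and was not called.

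Not all stimulus-induced genes were lower. Fosl2, a Fos-related AP-1 subunit gene, rose with the block (log2 fold change 0.54, SE 0.05, edgeR adjusted p = 1.63e-05), from 59.4, 75.7 and 70.9 CPM in wild-type libraries 1 to 3 to 86.9, 105.9 and 106.5 CPM in mutant-labelled ones. Homer1, whose short form is activity-induced, was at 0.01 (SE 0.10) on the log2 scale, and Ier5 at 0.05 (SE 0.15). The Homer1 count covers the whole gene and does not show its short form separately. Wild type 3, the library with the most Nr4a1, was the highest wild-type library for 18 of the 33 activity-induced genes, or 54.5%, against 29.9% of all genes tested. Mutant 2, the library with the least Nr4a1, was the lowest mutant-labelled library for 16 of them, or 48.5%, against 36.4%.

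**Figure D3:**
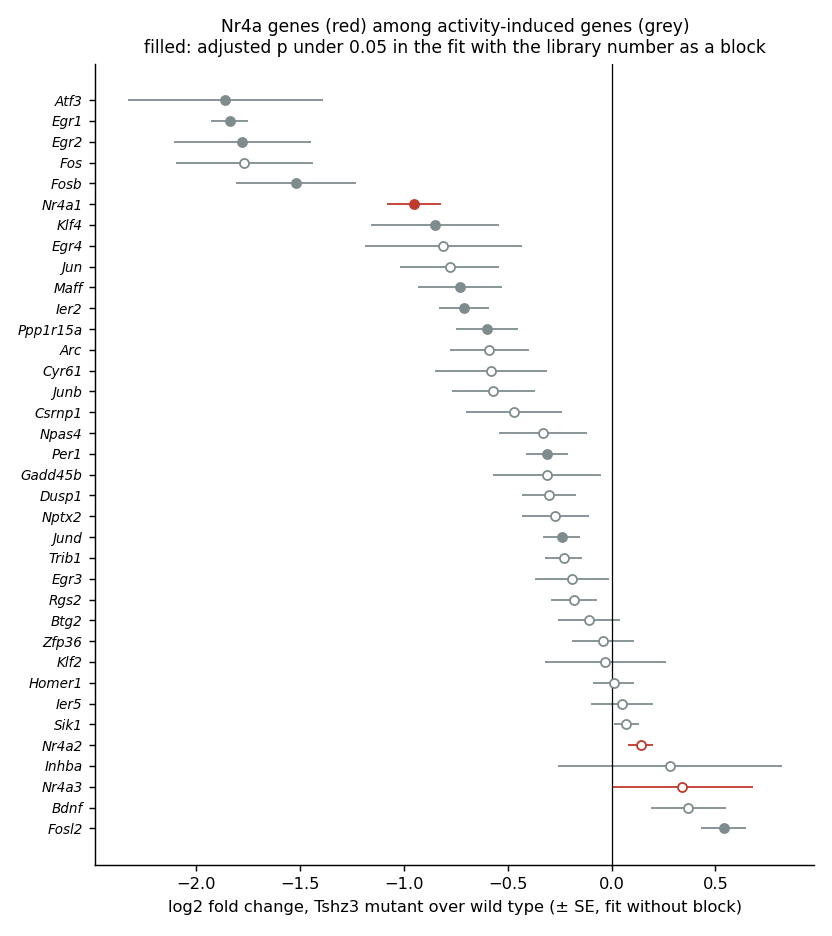
Log2 fold change (mutant-labelled over wild type, horizontal axis, ± SE of the edgeR fit without the block) of 33 activity-induced genes (grey) and the 3 Nr4a genes (red), sorted; filled points had an adjusted p under 0.05 with the block. Nr4a1 at −0.95 is 6th from the top of the plot, below Fosb at −1.52, whereas Nr4a2 at 0.14 and Nr4a3 at 0.34 lie among the few genes right of 0.

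Nr4a2 was higher while most other subplate markers had fold changes below 0. The list held 16 of them besides Nr4a2, all tested, with a median log2 fold change of −0.13 and 13 of 16 below 0. Over all genes tested the median was −0.01, with 7640 of 14618 below 0. Striatal and endothelial markers had 9 of 12 and 8 of 10 below 0, and neocortex projection neuron genes 3 of 10. Nr4a2 had a higher fold change than 15 of the 16 subplate markers, the exception being Pde1a. With the block 1 of the 16 was called higher and 1 lower, against 1.97% and 1.49% of all genes tested, and neither direction had a call with the block and without pair 3. Pde1a, a calcium-dependent phosphodiesterase gene, was the marker called higher (log2 fold change 0.28, SE 0.07, edgeR adjusted p = 0.0468), from 31.6, 25.9 and 31.3 CPM in wild type to 35.4, 35.3 and 37.0 CPM. Cplx3, a complexin gene of ribbon synapses and the subplate, was called lower in the same fit (−2.28, SE 0.44, adjusted p = 0.0104). It was a rare transcript, at 0.806, 1.11 and 0.817 CPM in wild-type libraries 1 to 3 and 0.0943, 0.167 and 0.302 CPM in mutant-labelled ones.

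The other 14 were not called in either fit. Among them Nxph4, a secreted neurexophilin, was at 14.3, 13.0 and 13.5 CPM in wild type and 11.4, 10.3 and 10.7 CPM in mutant-labelled libraries without overlap. Of the 16 markers 4 were lower and 1 higher without overlap, against 6.09% and 7.42% of all genes tested. Ctgf, a matrix growth factor gene of layer 6b, was at 10.5 to 14.4 CPM against 8.41 to 15.2 CPM, which overlap. The abundant markers Serpini1 and Slc8a2 were at 0.03 (SE 0.20) and −0.04 (SE 0.10) on the log2 scale. Summed over the 16 markers, the level was 374.6 to 427.4 CPM in mutant-labelled and 356.8 to 438.5 CPM in wild-type libraries. In tissue RNA, fewer cells of a type and less RNA per cell cannot be told apart.

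**Figure D4:**
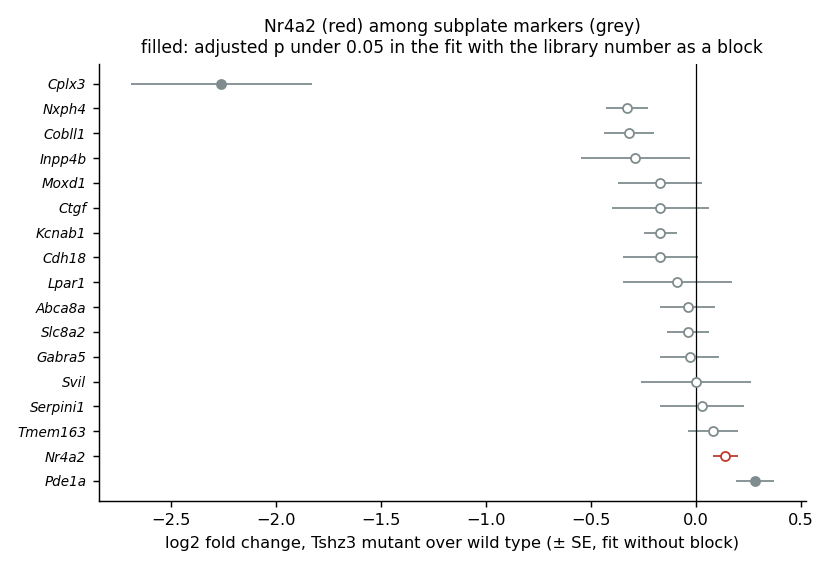
Log2 fold change (mutant-labelled over wild type, horizontal axis, ± SE of the edgeR fit without the block) of Nr4a2 (red) and 16 other subplate markers (grey), sorted; filled points had an adjusted p under 0.05 with the block. Nr4a2 at 0.14 lies right of every marker except Pde1a, and Cplx3 at −2.26 stands apart on the left.

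Other sources of Nr4a2 were looked at by the same lists. Of 7 markers of the claustrum and endopiriform nucleus besides Nr4a2, where the gene is also strongly expressed, 1 was called with the block, which called 3.46% of all genes: Gnb4, a G protein subunit gene, at −0.20 (SE 0.05, edgeR adjusted p = 0.0494). It was not called with the block and without pair 1 or pair 3. Among midbrain dopamine neuron genes, the transcription factor gene Pitx3 had no read in any library, Foxa1 and Foxa2 had at most 1 read per library, and Th, the rate-limiting enzyme of dopamine synthesis, was at 0.653 to 1.56 CPM. None of the 6 of these 11 genes that were tested was called in any of the 3 fits.

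Cell types in which Nr4a1 is also expressed gave the following levels. Striatal markers summed to 400.4 to 422.2 CPM in mutant-labelled and 415.7 to 470.1 CPM in wild-type libraries, and of the 12 only the opioid peptide gene Penk was called, lower with the block, as were 1.49% of all genes (−0.55, SE 0.12, edgeR adjusted p = 0.0277). Its level was 10.2, 9.63 and 14.0 CPM in mutant-labelled libraries 1 to 3 and 19.7, 12.4 and 17.6 CPM in wild type 1 to 3, which overlap. With the block and without pair 1 or pair 3 no striatal marker was called, and without pair 2 there were 3 called lower. The 12 microglia and macrophage markers summed to 72.9 to 106.8 CPM against 82.5 to 112.3 CPM, and the 10 endothelial markers to 219.0 to 267.5 CPM against 219.4 to 281.6 CPM, with none called. Meningeal and mural markers differed between libraries more than between genotypes, at 102.5 to 246.7 CPM against 90.1 to 294.4 CPM. The part of these cell types in the Nr4a1 difference was not tested.

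In the lists of the receptors' known partners and regulators, calls came only among the regulators and only with the block. Of 13 genes for retinoid X receptors and coregulators, none was called by edgeR with or without the block or by DESeq2, and their log2 fold changes ran from −0.10 to 0.15. Rxra, Rxrb and Rxrg, which form heterodimers with Nr4a1 and Nr4a2, were at −0.05, −0.04 and −0.10. The corepressor genes Ncor1 and Kdm1a were at −0.06 (SE 0.12) and −0.02 (SE 0.05). Of 20 genes for CREB, SRF and MEF2 factors, their cofactors and kinases, 1 was called higher and 2 lower with the block, where 1.97% and 1.49% of all genes were, and none without it or by DESeq2. With the block and without pair 3 none of the 20 was called, and without pair 2 the counts were 2 higher and 5 lower. With the block on all libraries, the gene called higher was the SRF cofactor gene Mkl2 at 0.27 (SE 0.06, edgeR adjusted p = 0.0206). Those called lower in that fit were the ETS factor genes Elk1 at −0.25 (SE 0.05, 0.022) and Elk4 at −1.14 (SE 0.20, 0.00549). Elk4 was rare, at 0.848 to 2.75 CPM in mutant-labelled and 2.51 to 4.98 CPM in wild-type libraries, which overlap. Crtc1, a CREB coactivator gene, was at 0.03 (SE 0.06), and Mef2c, the most abundant of the 20, at −0.19 (SE 0.11) and not called.

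**Figure D5:**
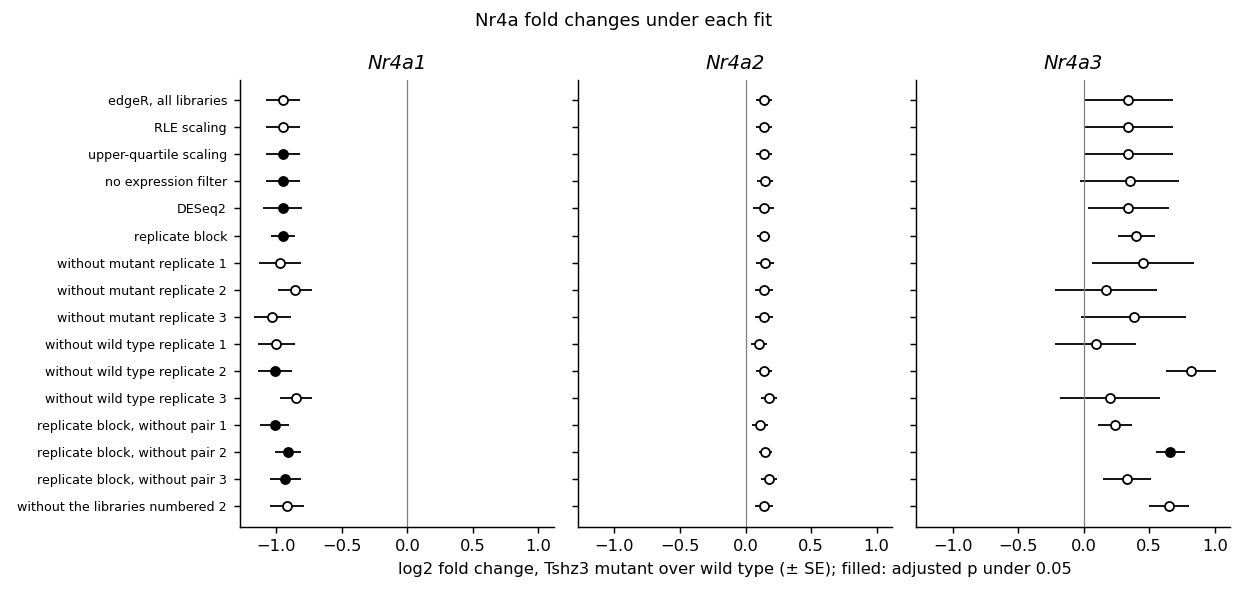
Log2 fold change (mutant-labelled over wild type, horizontal axis, ± SE) of each Nr4a gene in the 16 fits named at the left; filled points had an adjusted p under 0.05. Nr4a1 stays between −1.03 and −0.85 in every fit shown, Nr4a2 between 0.10 and 0.18, and Nr4a3 moves from 0.09 to 0.82 with the libraries included.

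Likeness was ranked by Pearson r of log2 CPM over the 6 libraries among 12135 other genes. The 5 genes most like Nr4a1 were Ndufb10, Syndig1l, Col23a1, Prkab1 and Hs3st4, with r of 0.998 to 0.986. Their differences were of unequal size: Col23a1, a transmembrane collagen gene, had a log2 fold change of −0.96, Hs3st4, a heparan sulfate sulfotransferase gene, −0.73, and Ndufb10, a subunit of respiratory complex I, −0.11. Nr4a2 was most like Arl14ep, Elavl4, Hirip3, Epn2 and Bdnf, with r of 0.994 to 0.981. Elavl4 encodes a neuronal RNA-binding protein and Bdnf a neurotrophin, the latter at 1.94, 2.08 and 2.4 CPM in wild-type libraries 1 to 3 and 2.73, 2.71 and 2.82 CPM in mutant-labelled ones.

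Nr4a3 was most like Zfp109, Aqr, Slc43a2, Tubgcp3 and Fbxo42, with r of 0.999 to 0.996. Aqr, a splicing helicase gene, was at 39.7, 57.3 and 43.8 CPM in wild-type libraries 1 to 3 and 49.3, 58.0 and 52.3 CPM in mutant-labelled ones, which has the same high libraries numbered 2. Such values are common with 6 libraries: the order of libraries was identical to that of Nr4a1 in 40 genes, of Nr4a2 in 28 and of Nr4a3 in 156. With group means removed, none of the 5 genes remained for Nr4a1 or Nr4a2 and 3 did for Nr4a3.

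No annotated gene overlaps any of the 3 loci in GENCODE M21. The nearest tested neighbours were not called in either fit. Grasp, 21.5 kb from Nr4a1, was at −0.41 on the log2 scale (SE 0.11, edgeR adjusted p = 0.433, with the block 0.0663), and 9430023L20Rik, 9.48 kb to the other side, at 0.01 (SE 0.07). Gpd2, 113.6 kb from Nr4a2, was at 0.02 (SE 0.10) and Stx17, 38.5 kb from Nr4a3, at 0.12 (SE 0.07).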

How the data were processed

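Per the labels' protocols, total RNA was sequenced after stranded TruSeq preparation. Raw read counts per gene symbol were deposited without normalization. Build mm10 and the tools HTSeq 0.5.3p9, Bowtie2 2.1.0, TopHat2 2.0.9 and CASAVA 1.8.2 come from the submitters' processing notes. Tool settings, gene annotation and the strand setting of counting: not given in the sources used here. Columns were matched to samples by title, and 0 sample columns were left unused.

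The main test was edgeR 4.0.16 under R 4.3.3 (quasi-likelihood, robust, TMM, default filter, two-sided, Benjamini-Hochberg over 14618 genes, threshold 0.05); SEs come from its F statistic. The edgeR fits were also run on simulated counts. There same-numbered libraries were given a shared deviation, so those runs cannot show whether the numbers mark pairs here. DESeq2 1.42.0, other scalings, no filter, single libraries left out and the library number as a block were alternatives. Same-numbered libraries deviated together from their group means (r = 0.61, 0.51 and 0.47 across genes), so the numbers were taken as pairs, although the labels do not say what they share and 3 such values can arise without pairs. Replicate libraries differed beyond sampling noise, and p-values reflect spread between pools. Genes named from each list were up to 4 called with the largest change and up to 3 uncalled with the highest CPM, besides the Nr4a genes and, per Nr4a gene, the 5 most alike over genes with a mean log2 CPM of at least 1 (prior count 2) and no provisional symbol. Other genes named, among them Fos, Fosl2, Klf4, Maff, Ier2, Ppp1r15a, Per1, Jund, Nxph4, Ctgf, the Rxr genes, Tshz3, Th, Pitx3, Foxa1, Foxa2 and the neighbours, were chosen after their values were seen. Members and lists were chosen with earlier results of these data known. RPKM used exon lengths of GENCODE M21 (GRCm38, the assembly of mm10).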

Additional observations from a re-analysis of the deposited data

How the results depend on the processing

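Nr4a1 kept its direction in all 15 alternatives and passed the threshold in 8 of them. Its log2 fold change was −0.95 with upper-quartile scaling (adjusted p = 0.0477), without the expression filter (0.0348), with DESeq2 and with the replicate block, and −1.01, −0.91 and −0.93 with the block and without pair 1, 2 or 3. With 1 library left out it ran from −1.03 to −0.85, with adjusted p from 0.0493 to 0.373. Nr4a2 ran from 0.10 to 0.18 over single libraries left out and passed in no alternative. Nr4a3 ran from 0.09 to 0.82 over single libraries left out and passed with the block and without pair 2 (0.66); the replicate block on all libraries changed the call of no other Nr4a gene than Nr4a1. Without both libraries numbered 2, an alternative chosen after seeing the data, Nr4a3 was at 0.65 with adjusted p = 0.222.

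The number of genes called moved widely, and the cause was not tested. Against 7 higher and 4 lower, upper-quartile scaling gave 8 lower, no filter 11 and 9, DESeq2 63 and 43, the replicate block 288 and 218, the block without pair 1, 2 or 3 gave 141 and 154, 1119 and 755, and 35 and 27, and dropping both libraries numbered 2 gave 1 and 2. Single libraries left out gave 1 to 21 higher and 2 to 14 lower. The Nr4a1 to Nr4a2 ratio difference ran from −1.18 to −1.0. Counting error alone is at most 6.71% of any Nr4a count. With the longest transcript as length, the wild-type log2 RPKM ratio of Nr4a1 to Nr4a2 was −1.37 in place of −1.64.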

Other observations

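Nuclear receptors other than the Nr4a family gave no calls in the fits on all libraries. Of 36 listed, 29 were tested, and edgeR with or without the block and DESeq2 called none of them, with a median log2 fold change of 0.00. Of all genes tested those fits called 3.46%, 0.0752% and 0.725%. With the block and without pair 2, 1 of the receptors was called higher and 3 lower, in a fit that called 1119 genes higher and 755 lower. Thra, the thyroid hormone receptor gene and the most abundant of the list, was at 912.6 to 995.2 CPM over all 6 libraries. Nr2f1, which patterns cortical areas, was at 171.0, 167.5 and 185.1 CPM in mutant-labelled libraries 1 to 3 and 220.6, 170.0 and 232.6 CPM in wild-type libraries 1 to 3, which overlap. Its difference on the log2 scale was −0.25 (SE 0.12, edgeR adjusted p = 0.745, with the block 0.0867). Nr1d1, a circadian repressor gene named after its values were seen, was at 7.71 to 10.2 CPM against 10.7 to 13.0 CPM without overlap (log2 fold change −0.38, SE 0.15, edgeR adjusted p = 0.653, with the block 0.0547). Of the 29 receptors tested 1 was lower and 2 higher without overlap, against 6.09% and 7.42% of all genes tested.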
